A study of Mus musculus with 2 samples.

Results

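A set of 40 genes of cell division and DNA replication was examined in the brains of newborn mice that lack the maternal copy of *Mir125b-2*. The genes were taken by name from a list of cyclins, cyclin-dependent kinases, replication factors and mitotic proteins, and every row of the table with one of these gene names was used. All 40 names were found, with 212 of the 128603 transcripts and 40 of the 51905 genes of the table. Maternal knockout mice (m-/p+) came from *Mir125b-2* heterozygous knockout females mated to C57BL/6J males, so the deletion was inherited through the germline and the paternal copy was intact. They were set against wild-type mice (m+/p+). Both groups were C57BL/6 mice at postnatal day 0, and total RNA of 6 mice per genotype was mixed in equal amounts into 1 rRNA-depleted, strand-specific library. There are no replicates, so the values compare these 2 libraries, no test was run, and no error between mice can be given.

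The tissue is labelled as whole brain, although the protocol in the labels speaks of the hippocampus. In the paper's methods, brains were the tissue dissected for sequencing. Of 7 markers of cerebellar granule cell precursors, 6 reached a mean of 1 FPKM (fragments scaled to transcript length and library size), but some of these are also made in other brain regions, and *Atoh1*, a defining marker of these cells, had 0.689 FPKM in m-/p+ and 0.541 FPKM in m+/p+ brains. Summed FPKM came to 1748662 in the knockout library and 1736519 in the wild-type library, and 50108 transcripts in the knockout and 50321 in wild type were above 0.3 FPKM. Read counts were not used here, and the depth is unknown. The *Mir125b-2* hairpin is listed at 1e-05 FPKM, the value that stands in place of 0, in both libraries and so does not check the genotype. Its host transcript *Mir99ahg* had 35.7 FPKM in m-/p+ and 28.1 FPKM in m+/p+ brains.

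A dividing cell passes from G1, where D-type cyclins release E2F transcription factors from the retinoblastoma protein, into S phase, where MCM helicases unwind DNA that PCNA-bound polymerases copy. In G2 cyclin A and cyclin B activate CDK1, and in mitosis Aurora and Polo kinases, the kinetochore and the anaphase-promoting complex separate the chromosomes. In the newborn mouse brain most neurons have left the cycle, and dividing cells lie in the ventricular and subventricular zones, the dentate gyrus, the external granule layer of the cerebellum, and among glial precursors, vessels and blood. Most of these genes are transcribed mainly in cells that divide. In RNA from whole tissue, fewer dividing cells and less RNA per dividing cell cannot be told apart.

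The deleted gene makes miR-125b-5p, and a second gene, *Mir125b-1*, makes the same mature RNA. The other mature RNA of the deleted hairpin, miR-125b-2-3p, has a different seed, and matches to it were not searched. The sequence of miR-125b-5p from RefSeq (chr16:77646279-77646300, plus strand, GRCm38.p6) is shown with the seed, bases 2 to 8, in capitals. Below it stand the stretches of member 3′UTRs that hold the complement of the seed, CTCAGGG, in capitals, since a microRNA finds its targets mainly through the seed.
mmu-miR-125b-5p: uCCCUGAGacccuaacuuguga
Foxm1 3′UTR: gcacttgtgtggCTCAGGGtaccccaagcc
Cenpf 3′UTR: agtgtccaCTCAGGGttctggaaggtg
Aurka 3′UTR: ctcatggctgccCTCAGGGtgccttgctga

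Only 3 of the 40 leading transcripts held this match in the 3′UTR, read from GENCODE M21 on GRCm38. The match lay in exon 8 of *Foxm1* (chr6:128374031-128374037, plus strand), in exon 18 of *Cenpf* (chr1:189642584-189642590, minus strand) and in exon 9 of *Aurka* (chr2:172356711-172356717, minus strand). The share was 7.5%, against 14.3% of 12722 protein-coding genes at a mean of at least 1 FPKM. Member 3′UTRs were also shorter, with a median of 647 bases against 1072 bases, and held 0.0759 matches per kilobase against 0.109. The longer match, with an A opposite the first base of the microRNA, was found in 0 of the 40 and in 4.88% of the protein-coding genes. Over all their transcripts, *Foxm1* had 2.60 FPKM in m-/p+ and 4.03 FPKM in m+/p+ brains, *Cenpf* 2.95 FPKM in m-/p+ and 3.62 FPKM in m+/p+ brains, and *Aurka* 2.70 FPKM in m-/p+ and 2.82 FPKM in m+/p+ brains. The leading transcripts, which hold the match, did not share a direction, with log2 ratios of -0.16 for *Foxm1*, -0.11 for *Cenpf* and 0.12 for *Aurka*. A match is a stretch of sequence and not a measured binding site.

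Cell division transcripts were slightly less abundant in the maternal knockout library. Summed over the 40 genes, the knockout had 260.5 FPKM and wild type had 274.2 FPKM, a difference of -4.98%. The members made up 0.0149% of all FPKM in the knockout and 0.0158% in wild type. For single genes the log2 ratio of knockout to wild type was taken from the summed FPKM of all transcripts after 0.1 FPKM was added to both values, at a mean of at least 1 FPKM. *Cdc6*, the loader of the MCM helicase, was the only member under this minimum, with 0.606 FPKM in m-/p+ and 0.588 FPKM in m+/p+ brains. Of the other 39 genes, 13 had a positive and 26 a negative log2 ratio, with a median of -0.08, whereas the median of 12863 protein-coding genes was 0.00.

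**Figure D1:**
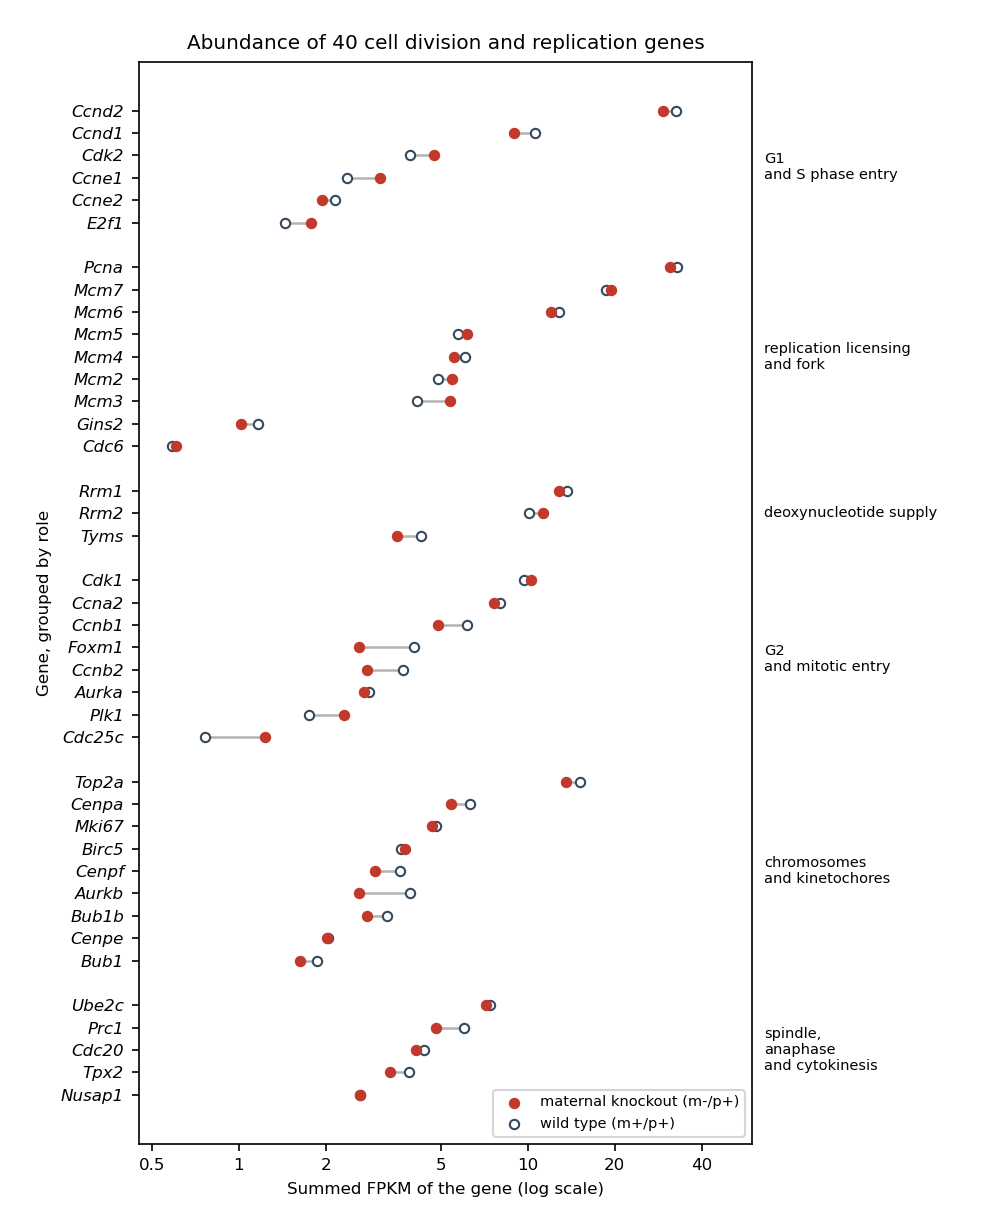
Summed FPKM (log scale) of the 40 genes, grouped by role, in the maternal knockout library (filled) and the wild-type library (open), with 1 pooled library per genotype and no error bars. Levels span 0.588 to 32.9 FPKM, the filled point lies left of the open point for most genes, and the widest gaps are those of *Cdc25c*, *Foxm1* and *Aurkb*.

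A difference of at least 1.2-fold was seen for 13 of the 39 genes. *Cdc25c*, *Plk1*, *Mcm3*, *Ccne1*, *E2f1* and *Cdk2* were higher in the knockout, which is 15.4% of the members against 6.13% of all protein-coding genes. *Foxm1*, *Aurkb*, *Ccnb2*, *Ccnb1*, *Prc1*, *Cenpf* and *Tyms* were lower, which is 17.9% against 7.49%. The signs of *Mcm3*, *Ccne1*, *E2f1* and *Tyms* depended on which transcripts were summed. With each library rescaled to a sum of 1000000 FPKM, which left 36 members at the minimum, 3 were higher and 7 lower. Rescaling lowered the values of both libraries, while the minimum and the 0.1 FPKM added stayed the same. With libraries centred on the median of protein-coding genes, 5 were higher and 7 lower. Most of these genes were of low abundance, where single genes scatter more. Between 1 and 5 FPKM, 6 of 22 members were higher, or 27.3% against 13.2% of 3381 protein-coding genes in that range, and 5 were lower, or 22.7% against 18.7%. Among the 17 members at 5 FPKM or more, 0 were higher, against 3.6% of protein-coding genes in that range. Lower were 2, or 11.8% against 3.51%. Of the 17 log2 ratios 12 were negative, with a median of -0.09. In the same range 4495 of 9482 protein-coding genes had a negative log2 ratio, and their median was 0.01.

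**Figure D2:**
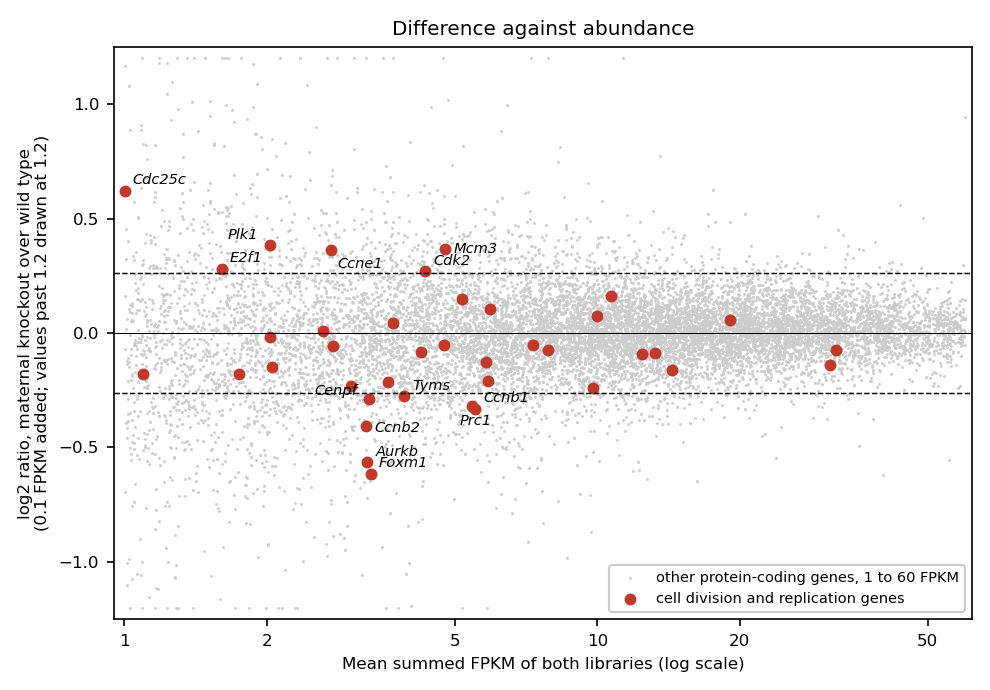
Log2 ratio of maternal knockout over wild type against the mean summed FPKM of both libraries (log scale) for the members (red) and other protein-coding genes between 1 and 60 FPKM (grey), with values beyond 1.2 drawn at 1.2 and dashed lines at 1.2-fold. The 13 named members lie beyond the lines and nearly all of them at low abundance, where the grey points also spread most.

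Genes of G1 and entry into S phase gave both directions. *Ccnd2* and *Ccnd1* encode the D-type cyclins that open the cycle, and both were lower in the knockout by less than 1.2-fold. *Ccnd2* had 29.5 FPKM in m-/p+ and 32.6 FPKM in m+/p+ brains, and *Ccnd1* had 8.97 FPKM in m-/p+ and 10.6 FPKM in m+/p+ brains. Cyclin E and its kinase partner CDK2 drive the start of replication. *Cdk2* had 4.74 FPKM in m-/p+ and 3.91 FPKM in m+/p+ brains, a log2 ratio of 0.27. *Ccne1* had 3.09 FPKM in m-/p+ and 2.38 FPKM in m+/p+ brains, but its second paralog *Ccne2* had 1.94 FPKM in m-/p+ and 2.16 FPKM in m+/p+ brains. *E2f1*, a transcription factor that switches on S phase genes, had 1.77 FPKM in m-/p+ and 1.44 FPKM in m+/p+ brains, although its leading transcript alone gave a log2 ratio of -0.10. The 6 genes together had 50.03 FPKM in m-/p+ and 53.08 FPKM in m+/p+ brains, a sum set by the D-type cyclins, while the median log2 ratio was 0.06.

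Replication genes as a group were nearly equal in the libraries, with 86.9 FPKM in m-/p+ and 87.0 FPKM in m+/p+ brains over 9 genes. *Pcna*, the sliding clamp of the DNA polymerases and the most abundant member, had 31.2 FPKM in m-/p+ and 32.9 FPKM in m+/p+ brains. The 6 subunits of the MCM helicase, which is built from 1 copy of each, did not share a direction. *Mcm3* had 5.39 FPKM in m-/p+ and 4.15 FPKM in m+/p+ brains, the only subunit past 1.2-fold. Levels of *Mcm7* were 19.5 FPKM in m-/p+ and 18.7 FPKM in m+/p+ brains, those of *Mcm5* 6.16 FPKM in m-/p+ and 5.72 FPKM in m+/p+ brains, and those of *Mcm2* 5.46 FPKM in m-/p+ and 4.91 FPKM in m+/p+ brains. These were the subunits with a higher value in the knockout. In contrast, *Mcm6* had 12.03 FPKM in m-/p+ and 12.81 FPKM in m+/p+ brains, and *Mcm4* had 5.57 FPKM in m-/p+ and 6.09 FPKM in m+/p+ brains. *Gins2*, a subunit of the GINS complex that joins the helicase at the fork, had 1.02 FPKM in m-/p+ and 1.17 FPKM in m+/p+ brains.

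Enzymes of deoxynucleotide supply were close to equal, with 27.7 FPKM in m-/p+ and 28.0 FPKM in m+/p+ brains in all. Ribonucleotide reductase, which makes deoxynucleotides, differed between its subunits: the large subunit *Rrm1* had 12.8 FPKM in m-/p+ and 13.6 FPKM in m+/p+ brains, and the small subunit *Rrm2* had 11.3 FPKM in m-/p+ and 10.1 FPKM in m+/p+ brains. *Tyms*, thymidylate synthase, had 3.52 FPKM in m-/p+ and 4.28 FPKM in m+/p+ brains, a log2 ratio of -0.27.

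The 8 genes of G2 and mitotic entry held the widest differences in both directions. *Cdk1*, the kinase that starts mitosis, had 10.3 FPKM in m-/p+ and 9.74 FPKM in m+/p+ brains. Its protein-coding transcripts alone ran the other way, with 5.44 FPKM in m-/p+ and 5.68 FPKM in m+/p+ brains. *Ccna2*, the cyclin A partner of CDK1, had 7.65 FPKM in m-/p+ and 8.06 FPKM in m+/p+ brains. Both B-type cyclins were lower in the knockout. *Ccnb1* had 4.88 FPKM in m-/p+ and 6.16 FPKM in m+/p+ brains, a log2 ratio of -0.33, and *Ccnb2* had 2.78 FPKM in m-/p+ and 3.71 FPKM in m+/p+ brains, a log2 ratio of -0.41. *Foxm1*, a transcription factor for G2 and mitotic genes, gave the lowest ratio of all members, at -0.61. Above their wild-type values stood *Cdc25c*, a phosphatase that activates CDK1, with 1.23 FPKM in m-/p+ and 0.767 FPKM in m+/p+ brains, a log2 ratio of 0.62, and *Plk1*, Polo-like kinase, with 2.31 FPKM in m-/p+ and 1.75 FPKM in m+/p+ brains. *Aurka*, the Aurora kinase of centrosomes, was described with its seed match and had a log2 ratio of -0.06.

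Genes of mitotic chromosomes and kinetochores leaned most to lower values in the knockout. Their sum was 39.4 FPKM in m-/p+ and 44.7 FPKM in m+/p+ brains, a ratio of 0.883, and 8 of the 9 genes had a negative log2 ratio, with a median of -0.18. *Top2a*, the topoisomerase that untangles sister chromatids, had 13.6 FPKM in m-/p+ and 15.2 FPKM in m+/p+ brains. *Cenpa*, the histone variant of centromeres, had 5.44 FPKM in m-/p+ and 6.31 FPKM in m+/p+ brains. *Aurkb*, the kinase of the chromosomal passenger complex, had 2.61 FPKM in m-/p+ and 3.91 FPKM in m+/p+ brains, a log2 ratio of -0.56. Its partner in that complex, *Birc5* (survivin), was the exception in the group, with 3.76 FPKM in m-/p+ and 3.64 FPKM in m+/p+ brains. The kinetochore protein *Cenpf* was also past 1.2-fold, at a log2 ratio of -0.29. *Mki67*, the proliferation antigen Ki-67, had 4.66 FPKM in m-/p+ and 4.83 FPKM in m+/p+ brains. The spindle checkpoint kinases followed, *Bub1b* with 2.77 FPKM in m-/p+ and 3.27 FPKM in m+/p+ brains and *Bub1* with 1.63 FPKM in m-/p+ and 1.86 FPKM in m+/p+ brains. The protein-coding transcripts of *Bub1* alone ran the other way, with 1.49 FPKM in m-/p+ and 1.30 FPKM in m+/p+ brains. *Cenpe*, a kinetochore motor, had 2.02 FPKM in m-/p+ and 2.04 FPKM in m+/p+ brains. None of these last 4 was past 1.2-fold.

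Spindle, anaphase and cytokinesis genes summed to 22.1 FPKM in m-/p+ and 24.3 FPKM in m+/p+ brains. *Prc1*, which bundles microtubules of the central spindle, had 4.82 FPKM in m-/p+ and 6.03 FPKM in m+/p+ brains, a log2 ratio of -0.32, and was the only one past 1.2-fold. *Ube2c*, the ubiquitin-conjugating enzyme of the anaphase-promoting complex, had 7.17 FPKM in m-/p+ and 7.43 FPKM in m+/p+ brains. *Cdc20*, the activator of that complex, had 4.12 FPKM in m-/p+ and 4.37 FPKM in m+/p+ brains. Of the spindle assembly factors, *Tpx2* had 3.34 FPKM in m-/p+ and 3.89 FPKM in m+/p+ brains, and *Nusap1* had 2.63 FPKM in m-/p+ and 2.62 FPKM in m+/p+ brains. The log2 ratio of *Nusap1*, 0.01, was the nearest to 0 among the 40 genes.

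The sums above hide which transcripts differed. In all 40 genes the transcript with the highest mean FPKM was protein-coding, and in 36 the same transcript led in both libraries. Of the 19 member transcripts past 2-fold, 13 were not protein-coding (68.4%), while these types made up 44 of the 105 member transcripts above a mean of 0.3 FPKM (41.9%). Over all protein-coding genes the shares were 53.1% of transcripts past 2-fold and 42.9% of those above the minimum. The 19 were also short, with a median length of 795 bases against 2448 bases for the other member transcripts above that minimum, as were those of all protein-coding genes (750 bases against 2168 bases). A ratio above 2 was found for 9 of the 105, or 8.57% against 9.43% of all transcripts at that minimum, and a ratio below 0.5 for 10, or 9.52% against 8.93%. These shares were close to those of the whole table. Only 1 of the 19 reached a mean of 1 FPKM. The way reads shared by overlapping transcripts were divided can change such values, and its part in them was not tested.

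The differences past 1.2-fold were not all carried by protein-coding transcripts. When only protein-coding transcripts were summed, 6 of the 13 genes stayed past 1.2-fold in the same direction, namely *Cdc25c*, *Cdk2*, *E2f1*, *Ccnb2*, *Prc1* and *Cenpf*. *Ccnb1* fell just short, with 3.77 FPKM in m-/p+ and 4.54 FPKM in m+/p+ brains, a log2 ratio of -0.26. With the leading transcript alone these were 4 of 13, namely *Cdc25c*, *Cdk2*, *Ccnb1* and *Ccnb2*. *Prc1* and *Cenpf* were within 1.2-fold in the leading transcript, and also when only transcripts of at least 500 bases were summed. Their log2 ratios in that setting, which was chosen after seeing the data, were -0.20 and -0.14. *Foxm1* shows the pattern. Its protein-coding transcripts summed to 1.79 FPKM in m-/p+ and 1.91 FPKM in m+/p+ brains, while its other transcripts summed to 0.806 FPKM in m-/p+ and 2.12 FPKM in m+/p+ brains. These others were retained-intron and processed transcripts, 3 of which had a ratio under 0.5. In *Aurkb* the protein-coding sum was likewise close, with 2.03 FPKM in m-/p+ and 2.12 FPKM in m+/p+ brains, while the rest had 0.582 FPKM in m-/p+ and 1.79 FPKM in m+/p+ brains.

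In 3 of the 13 genes the protein-coding transcripts ran against the gene's sum. For *Mcm3* they had 2.63 FPKM in m-/p+ and 3.02 FPKM in m+/p+ brains, a log2 ratio of -0.19, against 0.37 for all transcripts. The excess came from ENSMUST00000188112, a single-exon retained-intron transcript of 716 bases (chr1:20803006-20803721, minus strand), with 2.34 FPKM in m-/p+ and 1.06 FPKM in m+/p+ brains, the only member transcript past 2-fold at a mean of 1 FPKM or more. *Ccne1* had 1.84 FPKM in protein-coding transcripts in m-/p+ and 2.04 FPKM in m+/p+ brains, a log2 ratio of -0.14, and the transcript that turned the sum, ENSMUST00000137097, had 0.939 FPKM in the knockout and was listed at the floor in wild type. *Tyms* had 1.32 FPKM in protein-coding transcripts in m-/p+ and 1.17 FPKM in m+/p+ brains, a log2 ratio of 0.16. Among its other transcripts, the retained-intron ENSMUST00000134298 had 0.0433 FPKM in m-/p+ and 1.18 FPKM in m+/p+ brains, and the nonsense-mediated decay transcript ENSMUST00000146520 had 1.18 FPKM in m-/p+ and 0.302 FPKM in m+/p+ brains. So 2 small transcripts of *Tyms* lay on opposite sides. The transcripts of *Ccne1* and *Tyms* were picked after their values were seen.

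**Figure D3:**
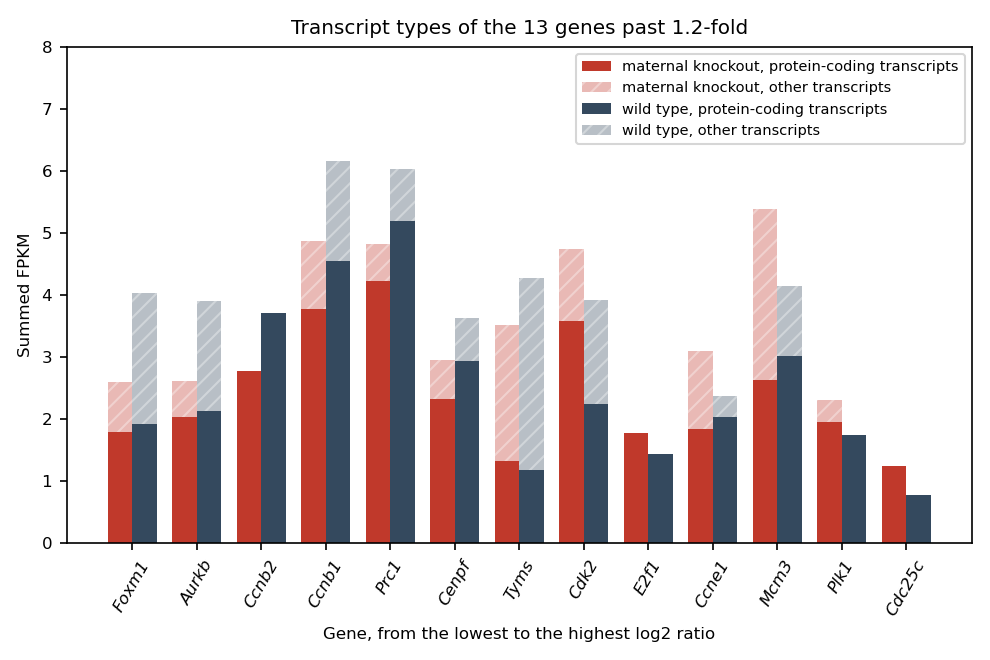
Summed FPKM of protein-coding (solid) and other (pale, hatched) transcripts of the 13 genes past 1.2-fold, with the maternal knockout bar left of the wild-type bar for each gene. The solid bars of *Foxm1* (1.79 FPKM in knockout, 1.91 FPKM in wild type) and *Aurkb* (2.03 FPKM in knockout, 2.12 FPKM in wild type) are nearly level while the pale parts differ, and *Cdk2* differs in its solid bars.

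The other direction was also found. *Cdk2* was further apart in its protein-coding transcripts, with 3.59 FPKM in m-/p+ and 2.24 FPKM in m+/p+ brains, a log2 ratio of 0.66, than in all transcripts. Its leading transcript ENSMUST00000026415 had 2.46 FPKM in m-/p+ and 1.45 FPKM in m+/p+ brains. The retained-intron transcript ENSMUST00000219099, picked after its values were seen, stood opposite, with 0.0126 FPKM in m-/p+ and 0.832 FPKM in m+/p+ brains. *Cdc25c* and *Ccnb2* have a single transcript each, both protein-coding, so their differences do not depend on how FPKM was divided among transcripts. *Ccne2*, *Cenpe* and *Gins2* were within 1.2-fold over all transcripts and were lower in the knockout by more than that in protein-coding ones, with log2 ratios of -0.38, -0.29 and -0.40, although the protein-coding mean of *Gins2* was under 1 FPKM. Their leading transcripts alone gave -0.0006 for *Ccne2*, -0.21 for *Cenpe* and -0.40 for *Gins2*. In *Ccne2* and *Cenpe* the step past 1.2-fold thus came from less abundant protein-coding transcripts. *Tpx2* showed 2 protein-coding transcripts past 2-fold in opposite directions, ENSMUST00000028969 with 0.146 FPKM in m-/p+ and 0.865 FPKM in m+/p+ brains and ENSMUST00000164120 with 0.888 FPKM in m-/p+ and 0.301 FPKM in m+/p+ brains, again picked after their values were seen. The sum of its protein-coding transcripts was 3.34 FPKM in m-/p+ and 3.38 FPKM in m+/p+ brains.

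The promoters of the members differed by role. A window of 250 bases before to 50 bases after the start site was available from RefSeq (GRCm38.p6) for 30 members. The CHR element TTTGAA, bound by complexes that time late cell cycle genes, was searched on both strands, as were the E2F-type motifs GGCGGGAA, TTTGGCGC and TTTCCCGC, of which the reverse complement of the last shares 7 bases with the first. Windows are shown on the gene's strand with the motif in capitals, the CHR genes before the E2F-type ones, because the motifs followed the phase in which the genes act.
Cdk1: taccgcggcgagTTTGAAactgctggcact
Cdc20: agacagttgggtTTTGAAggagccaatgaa
Mki67: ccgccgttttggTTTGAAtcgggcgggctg
Mcm6: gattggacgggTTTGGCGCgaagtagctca
Cdk2: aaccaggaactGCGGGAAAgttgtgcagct
Rrm1: aggagaactcgTTCCCGCCaggtccgcttt

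The motifs printed lie at chr10:69352922-69352927 (*Cdk1*, minus strand), chr4:118437356-118437361 (*Cdc20*, minus), chr7:135716472-135716477 (*Mki67*, minus), chr1:128359745-128359752 (*Mcm6*, minus), chr10:128705184-128705191 (*Cdk2*, minus) and chr7:102441628-102441635 (*Rrm1*, plus). The CHR letters were in 12 of 17 genes of G2, mitosis and cytokinesis (70.6%) and in 1 of 13 genes of G1, S phase, replication and deoxynucleotide supply (7.69%, *Mcm2*), against 20.2% of 27025 genes. An E2F-type motif was in 7 of the 13 earlier genes (53.8%) and in 0 of the 17 later ones, against 3.69% of all genes. *Cdk2*, *Mcm3*, *Mcm5*, *Mcm6*, *Mcm7*, *Cdc6* and *Rrm1* held one, and their log2 ratios, for the 6 above the minimum, ran between -0.09 for *Mcm6* and *Rrm1* and 0.37 for *Mcm3*. Genes with the CHR letters ranged between -0.41 for *Ccnb2* and 0.38 for *Plk1*. Among the CHR genes only *Cdk1*, *Mcm2* and *Plk1* had a positive log2 ratio. Among the E2F-type genes above the minimum only *Mcm6* and *Rrm1* had a negative one. Genes with 1 motif thus did not all share a direction.

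Other genes of the cycle gave a similar picture of small differences. Of 42 further replication genes at the minimum, 4 were higher (9.52%) and 7 lower (16.7%) by 1.2-fold, with a median log2 ratio of 0.00. The ends of this list were *Mcm8*, a helicase of DNA repair, with 1.52 FPKM in m-/p+ and 1.096 FPKM in m+/p+ brains, and *Mcm10*, a fork factor, with 0.879 FPKM in m-/p+ and 1.55 FPKM in m+/p+ brains. Of 61 further mitosis genes, 2 were higher (3.28%) and 10 lower (16.4%), with a median of -0.05. *Hmgb2*, a chromatin protein, stood highest with 13.2 FPKM in m-/p+ and 10.6 FPKM in m+/p+ brains, and *Spc24*, a kinetochore subunit, lowest with 2.13 FPKM in m-/p+ and 3.27 FPKM in m+/p+ brains. Over all protein-coding genes at the minimum, 6.13% were higher and 7.49% lower. Genes of these 2 lists past 1.2-fold were again mostly of low abundance. Between 1 and 5 FPKM, 0 of 39 of these mitosis genes were higher and 9 lower (23.1%), and 4 of 19 replication genes were higher (21.1%) and 7 lower (36.8%), against 13.2% higher and 18.7% lower for protein-coding genes in that range. At 5 FPKM or more, 2 of 22 mitosis genes were higher (9.09%) and 1 lower (4.55%), and 0 of 23 replication genes were past 1.2-fold. Of protein-coding genes in that range, 3.6% were higher and 3.51% lower. None of 6 other cyclin-dependent kinases, cyclins and related genes was past 1.2-fold, with a median of -0.11 and *Cdk4* at 70.3 FPKM in m-/p+ and 67.7 FPKM in m+/p+ brains.

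Markers of cells that divide, or have stopped, were read beside these values. Of 15 neural progenitor markers at the minimum, 12 had a negative log2 ratio, with a median of -0.08. By 1.2-fold 2 were lower (13.3%, against 7.49% of all protein-coding genes). At 5 FPKM or more this was 1 of 12 markers (8.33%), against 3.51% of protein-coding genes in that range. *Neurog1*, under the minimum, was listed at the floor in wild type. The markers summed to 899 FPKM in m-/p+ and 916 FPKM in m+/p+ brains. *Neurog2*, which commits cortical progenitors to become neurons, had 2.58 FPKM in m-/p+ and 3.48 FPKM in m+/p+ brains. The 13 markers of postmitotic neurons were closer together, with a median of 0.01, 0 past 1.2-fold, and 2531 FPKM in m-/p+ and 2555 FPKM in m+/p+ brains. All 13 had 5 FPKM or more, where 3.6% of protein-coding genes were higher and 3.51% lower, while 3 progenitor markers lay below 5 FPKM. The 2 lists thus differ in abundance as well. Precursors of cerebellar granule cells (median -0.10, 6 genes) and of oligodendrocytes (median -0.07, 5 genes) had 0 markers past 1.2-fold. Of all protein-coding genes 6.13% were higher and 7.49% lower, so 0 in such short lists is near that share.

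Of the marker lists, that of endothelial cells had the median furthest from 0. All 7 had a negative log2 ratio, none past 1.2-fold, with a median of -0.20 and sums of 87.0 FPKM in m-/p+ and 98.2 FPKM in m+/p+ brains, a ratio of 0.886. *Kdr*, the VEGF receptor of vessels, was lowest with 7.33 FPKM in m-/p+ and 8.65 FPKM in m+/p+ brains. For the kinetochore members the ratio of sums was 0.883. Erythroid markers had a median of 0.02 and sums of 497 FPKM in m-/p+ and 500 FPKM in m+/p+ brains, with *Hbb-y* listed at the floor in the knockout. Of the 5 at the minimum, 1 was higher by 1.2-fold (20%, against 6.13% of all protein-coding genes). This was *Alas2*, a heme synthesis enzyme, with 3.03 FPKM in m-/p+ and 2.38 FPKM in m+/p+ brains. Microglial markers (7 genes, median -0.04) and meningeal markers (6 genes, median -0.10) each had 1 gene lower by 1.2-fold. These are shares of 14.3% and 16.7%, against 7.49% of all protein-coding genes. Whether the number of vessel cells, progenitors or other dividing cells in the pools has a part in the member values was not tested.

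**Figure D4:**
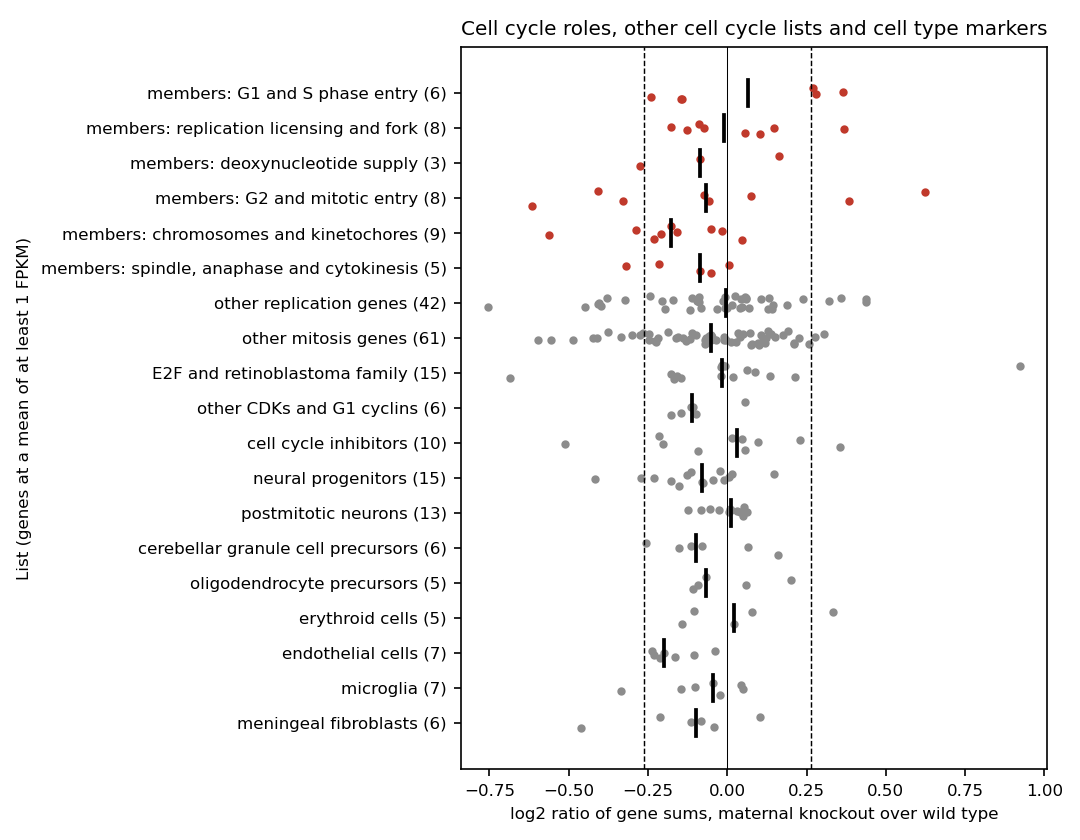
Log2 ratio of gene sums, maternal knockout over wild type, for members by role (red), other cell cycle lists and cell type markers (grey) at a mean of at least 1 FPKM, with 1 point per gene, a bar at each median and dashed lines at 1.2-fold. The medians of the kinetochore members (-0.18) and the endothelial markers (-0.20) lie furthest to the left, and that of postmitotic neurons (0.01) lies near 0.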

How the data were processed

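Total RNA of 6 mice per genotype was pooled into 1 library per genotype. Per the labels, the authors used Trimmomatic 0.36 to trim reads, HISAT2 2.1.0 to align them to GRCm38.p5 and Cuffdiff (version not given in the sources used here) for expression. They deposited FPKM per Ensembl transcript, with 1e-05 in place of 0. The deposited ratio, log2 ratio, p-value, q-value and significance columns, and a sheet of transcripts past the authors' 2-fold limit, hold their own comparison and were not used.

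Tables were handled in pandas 2.3.3 and numpy 2.4.6 under python 3.11.15, and matplotlib 3.10.9 drew the plots. FPKM was summed per gene symbol, and 0.1 FPKM was added before log2 ratios were taken, which understates differences of low genes. Genes needed a mean of 1 FPKM and transcripts a mean above 0.3 FPKM. Folds of 1.2 (genes) and 2 (transcripts) are descriptive limits. Transcript types and 3′UTRs came from GENCODE M21, which held 99.5% of the transcript identifiers, and promoters and the microRNA from RefSeq. Counting of fold limits was tested on simulated data. Named were all members, the highest and lowest gene of other lists, and leading or 2-fold transcripts at a mean of 1 FPKM. Any other transcript is marked as chosen with its values known. The genes *Atoh1*, *Neurog1*, *Hbb-y*, *E2f2*, *E2f8* and *Mybl2* were named after their values were seen. Members and lists were chosen with earlier results of these data known. Pseudocount, minimum, fold, scaling and transcripts summed were varied.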

Additional observations from a re-analysis of the deposited data

How the results depend on the processing

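No paired analysis was possible because only 1 pool was sequenced per genotype. The median log2 ratio of the members lay between -0.11 and -0.07 under its 9 alternatives, within 0.05 of the main value, and the ratio of the members' sums between 0.944 and 0.951. The 6 members higher in the knockout were 0 at a minimum of 5 FPKM, and 3 with libraries rescaled to 1000000 FPKM or with protein-coding transcripts only. They were 8 at 1.1-fold and 1 at 1.5-fold. The 7 lower ones were 2 at a minimum of 5 FPKM, 3 with leading transcripts only, 16 at 1.1-fold and 1 at 1.5-fold. No share over all protein-coding genes was taken at 1.1-fold or 1.5-fold, so these counts cannot be set against a background. The 9 transcripts with a ratio above 2 were 16 with the minimum on the knockout library, 1 at a mean above 1 FPKM and 4 with protein-coding transcripts only, and the 10 below 0.5 were 2, 0 and 2 under these settings. With the minimum on the wild-type library, 6 were above 2 and 15 below 0.5. A minimum on 1 library keeps transcripts that are high in that library, so these 2 skews follow from the filter. The 3 seed matches were 0 for the 8-base match. Log2 ratios changed sign for *Ccne1* (-0.14 with protein-coding transcripts, with the leading transcript and with transcripts of at least 500 bases), *Mcm3* (-0.19 with protein-coding and with leading transcripts), *Tyms* (0.16 with both) and *E2f1* (-0.10 with the leading transcript). The 500-base setting was chosen after seeing the data. Which transcripts are summed sets these signs by construction. Of 42 alternatives of the main results, 27 stayed within the tolerance and 15 did not. With 1 pooled library per genotype and unknown depth, neither counting error nor the spread between mice can be given, and a 1.2-fold difference of a gene near 1 FPKM cannot be told from either.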

Other observations

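The regulators above the members differed little in most cases. A list of E2F, retinoblastoma, Tfdp, Lin and Mybl genes had 15 at a mean of at least 1 FPKM, with a median log2 ratio of -0.02. By 1.2-fold 1 was higher and 1 lower in the knockout. That is 6.67% each way, against 6.13% higher and 7.49% lower of all protein-coding genes. *Mybl1*, a MYB family transcription factor, had 2.26 FPKM in m-/p+ and 1.14 FPKM in m+/p+ brains, a log2 ratio of 0.92, and *E2f7*, a repressor of S phase genes, had 1.05 FPKM in m-/p+ and 1.75 FPKM in m+/p+ brains, a log2 ratio of -0.68. These stood at opposite ends of the 15 genes, and all others of the 15 were within 1.2-fold. The genes of the list under the minimum were not counted. They were *E2f2*, *E2f8* and *Mybl2*, all lower in the knockout, with log2 ratios of -0.40, -0.40 and -0.61.

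Inhibitors of the cycle gave a median of 0.03 over 10 genes, with 1 higher and 1 lower by 1.2-fold. That is 10% each way, against 6.13% higher and 7.49% lower of all protein-coding genes. *Gadd45a*, a stress response gene that slows the cycle, had 2.86 FPKM in m-/p+ and 2.21 FPKM in m+/p+ brains, a log2 ratio of 0.35. *Cdkn2c*, an inhibitor of the kinases that bind D-type cyclins, had 3.23 FPKM in m-/p+ and 4.65 FPKM in m+/p+ brains, a log2 ratio of -0.51.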
